A study of Rattus norvegicus with 6 samples.

Results

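Glycosaminoglycan chain synthesis and sulfation was followed through 10 genes in rat knee cartilage: Chsy1, Chpf, Csgalnact1, Xylt1, Ugdh, Papss1, Papss2, Slc26a2, Chst11 and Chst3. They were chosen by their known function, as the rows of the deposited count table that carry these gene names, and they are 10 of 26981 features. Each name matched 1 row, and all 10 passed the filter on low counts. The loaded group was wild-type male Sprague-Dawley rats, 6 weeks old at the start, whose right knee and ankle were compressed along the limb axis under anaesthesia. Compression was applied every 2 days for 4 weeks, with 40 cycles of 10 s in a session. The base load was 5 N for 9 s and the peak load was 20 N for 0.5 s. The control group, also described as blank, was wild-type male rats of the same strain and starting age, and no load is given for it. RNA of the right knee cartilage was sequenced in 3 libraries from each group, out of an experiment of 70 rats in 7 groups. The sample labels of the loaded libraries name an excessive load without its size, so the 20 N and 4 weeks come from the study design. Whether every library stands for its own rat is not stated, so the p-values cover variation among 6 libraries, some of which may be technical.

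Chondroitin sulfate is the sulfated sugar chain that gives aggrecan, the main proteoglycan of cartilage, its charge and its hold on water. A chain starts with xylose on a serine of the core protein. It grows by alternating glucuronic acid and N-acetylgalactosamine, and is sulfated in the Golgi with the activated sulfate donor PAPS. Sulfate enters the cell through membrane transporters and is turned into PAPS by PAPS synthases. Inherited loss of several of these enzymes and transporters in humans causes skeletal dysplasia. Other cell types, among them blood and marrow cells, also make chondroitin sulfate chains, there largely on the granule proteoglycan serglycin.

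Library totals were 28435307 to 33616096 counts in loaded and 34527264 to 40332904 counts in control libraries. At these depths a count of 0 allows up to 0.0744 to 0.106 CPM (the reads of a gene relative to all reads of its library), a limit that covers counting error only. This limit uses unscaled library totals, while the CPM values of genes use scaled totals. The libraries mixed tissues. Summed erythroid markers took 12.9% to 14.03% of counts in loaded and 13.6% to 14.8% in control libraries. Neutrophil and marrow myeloid markers took 3.12% to 3.71% and 4.46% to 4.80% (loaded and control, as in the values that follow), and monocyte and macrophage markers 1.15% to 1.22% and 1.497% to 1.57%. Skeletal muscle markers took 1.74% in every loaded library and 0.673% to 0.688%, and osteoblast and osteocyte markers 0.590% to 0.619% and 0.282% to 0.289%. Chondrocyte markers, the labelled tissue, took 0.282% to 0.308% and 0.188% to 0.203%. Of 14 chondrocyte markers 8 rose and 1 fell. Matn1, a cartilage matrilin, stood below 1 CPM in every library. Hypertrophic chondrocyte markers took 0.0179% to 0.0198% and 0.00584% to 0.00666%. Adipocyte markers took 0.01004% to 0.0117% and 0.0191% to 0.0208%. Summed markers of B cells, endothelium and synovial lining and fibroblasts each stood between 0.00708% and 0.0216% in every library.

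Of the 10 genes 2 rose, 1 fell and 7 did not pass the test (edgeR's quasi-likelihood test, Benjamini-Hochberg adjusted p under 0.05 over 16447 genes). Chsy1 and Chpf, partners in polymerising the chondroitin chain, were higher in loaded knees. Papss1, the more abundant of the PAPS synthases in these libraries, was lower. The sulfotransferases Chst11 and Chst3 had no difference that passed. Over all genes tested 17.9% were called higher and 18% lower, 35.8% in either direction, so the shares among the 10 genes were close to the background. With library totals in place of TMM scaling, 3578 genes rose and 2074 fell, against 2941 and 2954. The median log2 fold change of the 10 genes was -0.09, and that of all genes 0.00. In TMM-scaled CPM the 3 loaded libraries lay above all controls for 3 of the 10 genes and below them for 2, where 23.9% of all genes did so on each side and 47.9% on either. In bulk tissue, fewer cells of a type and less RNA per cell cannot be told apart.

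**Figure D1:**
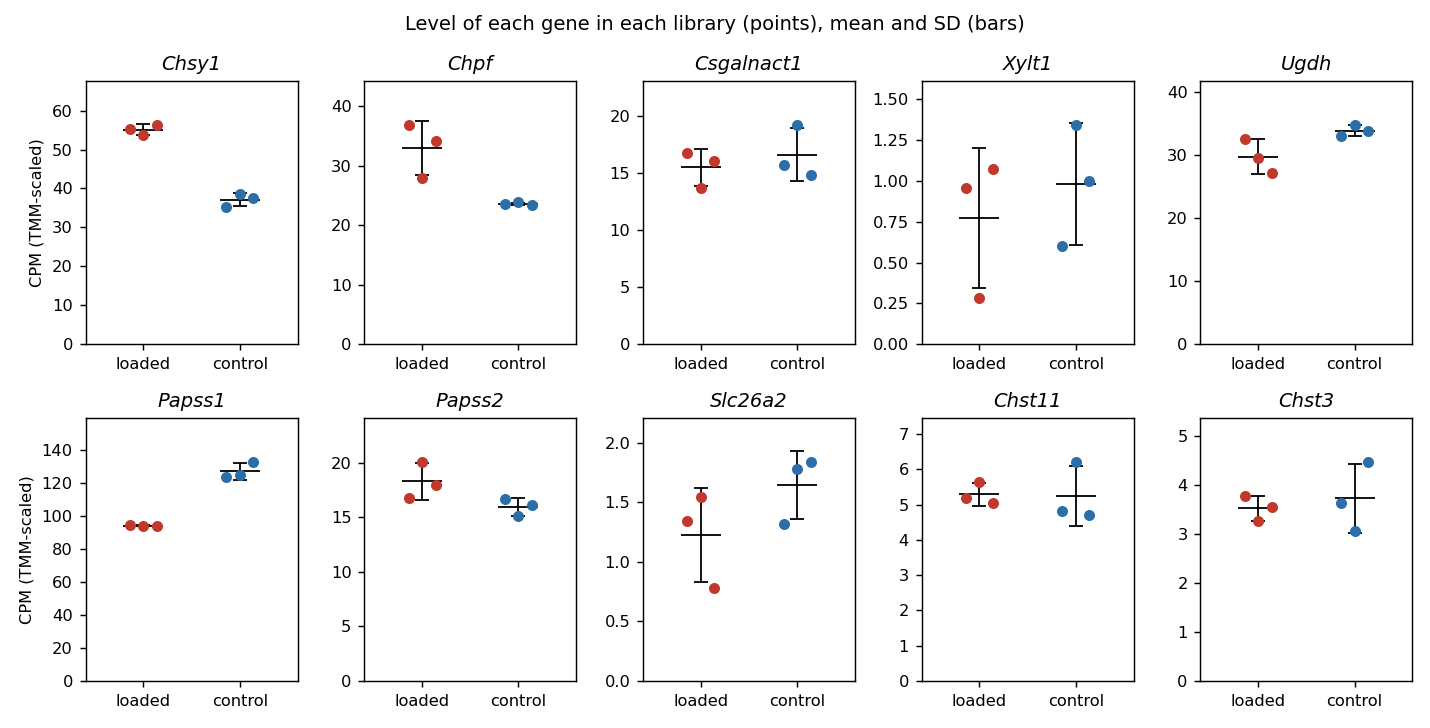
Level of each of the 10 genes in TMM-scaled CPM (linear axes from 0), with 1 point per library and the mean ± SD as bars (n = 3 in each group). The loaded points of Chsy1, Chpf and Papss2 lie above all control points, those of Papss1 and Ugdh below, and the other 5 genes overlap.

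The promoter sequences of the 3 genes that passed are shown because Chsy1 and Chpf, partners in 1 enzyme reaction, rose together while Papss1 fell. They are RefSeq sequences of build GRCr8, 250 bases before to 50 after the annotated start, and 9 of the 10 genes had one. Capitals mark matches, on either strand, to the GC box GGGCGG (Sp1 and KLF factors), the cyclic AMP response element TGACGTCA, and the CCAAT box.
Chsy1, GRCr8 chr1:129099838-129100137, plus strand: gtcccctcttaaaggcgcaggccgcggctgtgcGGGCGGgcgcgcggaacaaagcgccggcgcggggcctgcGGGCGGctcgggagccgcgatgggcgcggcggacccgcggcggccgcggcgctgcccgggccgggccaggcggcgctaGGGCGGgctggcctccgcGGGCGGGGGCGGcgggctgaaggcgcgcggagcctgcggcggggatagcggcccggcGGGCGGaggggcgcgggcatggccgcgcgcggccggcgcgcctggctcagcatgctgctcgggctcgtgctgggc
Chpf, GRCr8 chr9:84416474-84416773, minus strand: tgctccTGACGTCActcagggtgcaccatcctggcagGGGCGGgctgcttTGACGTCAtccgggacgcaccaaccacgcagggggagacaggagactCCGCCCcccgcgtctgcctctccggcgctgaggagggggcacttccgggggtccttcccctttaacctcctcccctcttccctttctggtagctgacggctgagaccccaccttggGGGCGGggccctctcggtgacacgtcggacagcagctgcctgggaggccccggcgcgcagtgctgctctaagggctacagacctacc
Papss1, GRCr8 chr2:222714180-222714479, plus strand: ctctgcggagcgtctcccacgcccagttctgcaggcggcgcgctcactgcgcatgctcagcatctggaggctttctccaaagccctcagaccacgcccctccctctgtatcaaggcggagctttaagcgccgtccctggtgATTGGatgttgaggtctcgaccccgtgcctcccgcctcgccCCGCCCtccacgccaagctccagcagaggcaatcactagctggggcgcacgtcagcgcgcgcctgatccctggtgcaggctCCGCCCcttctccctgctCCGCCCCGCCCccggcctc
The motif set was chosen after the Chpf promoter had been seen. It also held the AP-1 motif TGANTCA, bound by Fos and Jun factors. The TATA box was searched as TATAAA, the core promoter element of many inducible genes. The E-box was searched as CACGTG, which Myc and related factors bind. For the cartilage factors of the SOX family the letters were AACAATG, and for the bone factors of the RUNX family they were TGTGGT. None of these 5 motifs had a match in the 3 windows. The Chsy1 window held 6 GC boxes and was 84% G or C, against a median of 51.7% over 33469 rat promoters. An atg whose reading frame stays open to the end of the window lies just before the annotated start of Chsy1. Transcription may therefore not begin at that start, and part of the stretch before it may be transcribed. The Chpf window held 3 GC boxes and 2 cyclic AMP response elements, which no other member's window had. The Papss1 window held 4 GC boxes, counting overlapping matches, and 1 CCAAT box, and its start lies 68327 bases inside the annotated gene, so another start is also annotated. Among all promoters 33.1% held a GC box, 37.5% a CCAAT box and 1.83% a cyclic AMP response element. Of the 9 genes with a window 8 held a GC box, so it was not particular to the genes that passed. The Chpf and Papss1 windows were 68% and 68.3% G or C, also above the median. A match describes letters in these windows and says nothing of binding.

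Chain polymerisation is carried out by chondroitin synthases, which add both sugars in turn, together with a polymerising factor. Chsy1 (ENSRNOG00000012698), a chondroitin synthase, stood at 55.3, 53.6 and 56.3 CPM in loaded libraries 1 to 3, against 35.3, 38.5 and 37.6 CPM in control libraries 1 to 3. Every loaded library was above every control, and neither group spread far. The level was 1.48-fold that of controls (95% interval 1.36 to 1.62), a log2 fold change of 0.57 ± 0.0576 (SE, adjusted p = 2.07e-06, edgeR). Chpf (ENSRNOG00000020038), the chondroitin polymerising factor, stood at 36.9, 27.9 and 34.2 CPM in loaded libraries, against 23.5, 23.9 and 23.4 CPM in control libraries. Loaded libraries were again all higher but spread more, with a coefficient of variation of 13.9% against 1.02% in controls, where counting error alone gives about 3.10% and 3.43%. Its level was 1.40-fold that of controls (95% interval 1.22 to 1.61), a log2 fold change of 0.48 ± 0.0926 (SE, adjusted p = 0.000839, edgeR). Both calls held in all 17 alternative fits. In the authors' deposited table the log2 fold changes were 0.58 for Chsy1 and 0.49 for Chpf.

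The balance of these partners was compared as the ratio of their FPKM values, which are per transcript length. Chsy1 over Chpf was 1.16, 1.49 and 1.28 in loaded libraries and 1.17, 1.25 and 1.25 in control libraries. The groups overlapped, and the log2 ratio differed by 0.10 (exact two-sided permutation p = 0.5; adjusted over 3 ratios, 0.75). With 3 libraries against 3 this exact test cannot go below p = 0.1. Without loaded 2, the library with the lowest Chpf, the difference was -0.00069.

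The levels of Chsy1 and Chpf rose, as did summed markers of chondrocytes, hypertrophic chondrocytes, bone and muscle. The part of these markers in the result was not tested. In TMM-scaled CPM the summed chondrocyte markers were 1.44 times their control level. Type II collagen (Col2a1), up by 0.59 on the log2 scale, made up 52.9% of that sum in loaded and 50.4% in control libraries, and without it the sum was 1.37 times its control level. The median marker of the 14 was higher by 0.28 on the log2 scale. Single markers ran from -0.89 for Matn1, which did not pass, and -0.28 for the chondromodulin gene Cnmd, which fell, to 0.82 for the type XI collagen gene Col11a1. The type IX collagen gene Col9a1 was at 0.00. Summed hypertrophic chondrocyte markers were 2.865 times, osteoblast markers 2.00 times and skeletal muscle markers 2.43 times their control level on the same scale. Summed B cell markers were 1.13 times (1.30 without Cd79b) and endothelial markers 1.04 times their control level. Synovial lining and fibroblast markers were 0.935 times, or 1.39 without Prg4. Per unit of aggrecan (Acan) in the same library, Chsy1 was at 1.48 ± 0.0977 in loaded and 1.33 ± 0.0551 in control libraries (FPKM ratio, SD, n = 3 each), and Chpf at 1.14 ± 0.072 and 1.09 ± 0.0209. Both ratios overlapped between the groups, so relative to Acan neither gene separated loaded from control libraries. For Chsy1 the overlap was narrow: only loaded 1, at 1.37, lay within the control range, which reached 1.38 in control 3. This ratio to Acan was chosen after the data were seen and has no test.

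Csgalnact1, which adds the first N-acetylgalactosamine and so starts the chondroitin chain, did not pass. It stood at 16.8, 13.7 and 16.1 CPM in loaded libraries, against 15.7, 19.2 and 14.9 CPM in control libraries. The groups overlapped, and the fold change was 0.935 (95% interval 0.784 to 1.11, adjusted p = 0.572, edgeR). Xylt1, the xylosyltransferase that places the first sugar on the core protein, had few counts. It had 30, 8 and 37 counts in loaded libraries and 21, 46 and 39 counts in control libraries, or 0.281 to 1.07 CPM and 0.601 to 1.34 CPM. Its fold change of 0.794 had a 95% interval of 0.382 to 1.65, so a difference of 1.5-fold either way was not excluded at this depth. Its sign turned when loaded 2, its lowest library, was left out (log2 fold change 0.05, adjusted p = 0.943).

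Glucuronic acid is supplied as UDP-glucuronate, which Ugdh (UDP-glucose dehydrogenase) makes. Ugdh stood at 32.6, 29.6 and 27.1 CPM in loaded libraries, against 32.97, 34.8 and 33.9 CPM in control libraries. All loaded libraries were lower in scaled CPM, loaded 1 by less than 1 CPM, and in FPKM loaded 1 lay within the control range. The fold change of 0.879 (95% interval 0.785 to 0.983) had an unadjusted p of 0.0271 and an adjusted p of 0.0702 (edgeR), and so did not pass. Without loaded 1 it passed (log2 fold change -0.26, adjusted p = 0.0176).

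**Figure D2:**
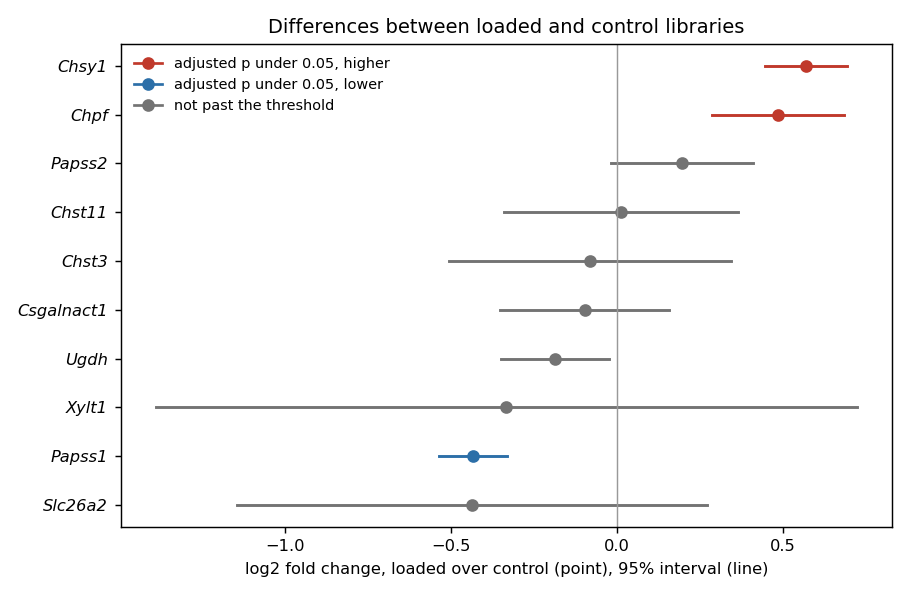
Log2 fold change of loaded over control for each of the 10 genes (points) with its 95% interval (lines), from the fit over 16447 genes. Chsy1 and Chpf lie to the right of 0 with intervals that do not reach it and Papss1 to the left, while the lines of Slc26a2 and Xylt1, the genes with the fewest counts, are the widest.

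Sulfate is made into PAPS by Papss1 and Papss2, enzymes that each join the adenylyltransfer and the kinase step. In humans and mice, loss of Papss2 disturbs cartilage growth. Papss1 (ENSRNOG00000011311) stood at 94.4, 93.6 and 93.9 CPM in loaded libraries, against 123, 125 and 133 CPM in control libraries. The groups did not overlap, and the loaded libraries differed from each other by less than counting error gives, with a coefficient of variation of 0.460% where counting alone gives about 1.84%. The level fell by 0.43 ± 0.0483 on the log2 scale (SE), a fold change of 0.740 (95% interval 0.689 to 0.795, adjusted p = 5.49e-06, edgeR), and the call held in all 17 alternative fits. The authors' deposited table gives -0.43 for it. Papss2 (ENSRNOG00000011068) stood at 16.8, 20.1 and 17.95 CPM in loaded libraries, against 16.7, 15.1 and 16.2 CPM in control libraries. Loaded libraries were all higher, loaded 1 by a margin of less than 1 CPM. The fold change of 1.14 (95% interval 0.987 to 1.33) did not pass (adjusted p = 0.15, edgeR), except with library totals in place of TMM scaling (log2 fold change 0.27, adjusted p = 0.0465).

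The ratio of the PAPS synthases did not overlap between the groups, which follows from the single genes and is not a further result. In FPKM Papss1 reached at most 39.5 in loaded libraries and was at least 46.9 in controls. Papss2 was at least 4.78 in loaded libraries and reached at most 4.30 in controls. Papss1 over Papss2 in FPKM was 8.27, 6.84 and 7.61 in loaded libraries, against 10.9, 11.6 and 12.1 in control libraries. Its mean was 7.58 ± 0.715 in loaded and 11.5 ± 0.598 in control libraries (SD, n = 3 each), a log2 difference of -0.61. The exact two-sided permutation p was 0.1, the smallest that 3 against 3 can give, and 0.3 when adjusted over the 3 ratios, so the threshold could not be reached. Leaving out any 1 library gave -0.67 to -0.54.

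Papss1 moved in the same direction as markers of marrow myeloid cells and of adipocytes, and summed erythroid markers were also lower. The part of any of these in its fall was not tested. Of 10 neutrophil and marrow myeloid markers 9 were tested and 8 fell, and in TMM-scaled CPM their sum was 0.701 times its control level. The summed erythroid markers were 0.899 times their control level, and of 7 tested 2 fell and none rose. Of 8 monocyte and macrophage markers 4 rose and 3 fell, and their sum was 0.734 times its control level. The lysozyme gene Lyz2 made up 93.5% of that sum in loaded and 96.2% in control libraries, and without it the sum was 1.24 times. All 4 adipocyte markers fell, and their sum was 0.534 times its control level, or 0.256 times without Fabp4. Papss1 was at 0.740 on that scale. None of these markers was at 0 in all libraries, and Ltf, the lactoferrin gene, was under the count filter. Serglycin (Srgn), the granule proteoglycan of blood cells, stood at 3279 ± 90.5 CPM in loaded and 4321 ± 121 CPM in control libraries (SD, n = 3 each) and fell by 0.40 ± 0.0306 on the log2 scale (SE, adjusted p = 1.13e-07, edgeR).

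Slc26a2, the sulfate transporter whose loss causes diastrophic dysplasia in humans, was low in every library. It had 42, 44 and 27 counts in loaded libraries, against 46, 61 and 72 counts in control libraries, or 0.783 to 1.54 CPM and 1.32 to 1.84 CPM. The groups overlapped, and the fold change of 0.739 had a 95% interval of 0.452 to 1.21 (adjusted p = 0.339, edgeR). A fall as large as that of Papss1 could not be told from no difference at this depth.

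The sulfotransferases decide where on N-acetylgalactosamine the sulfate sits. Chst11, which adds it at the 4-O position, stood at 5.17, 5.65 and 5.05 CPM in loaded libraries, against 4.81, 6.22 and 4.70 CPM in control libraries. Chst3, which adds it at the 6-O position, stood at 3.77, 3.26 and 3.54 CPM in loaded libraries, against 3.64, 3.07 and 4.47 CPM in control libraries. For both genes the groups overlapped and controls spread more widely than loaded libraries. The fold change was 1.01 for Chst11 (95% interval 0.790 to 1.29, adjusted p = 0.966) and 0.945 for Chst3 (0.704 to 1.27, adjusted p = 0.792, edgeR for both). Differences inside these intervals were not excluded at this depth and spread. Chst11 over Chst3 in FPKM was 3.86, 4.88 and 4.01 in loaded libraries and 3.72, 5.69 and 2.95 in control libraries. The log2 ratio differed by 0.09 (exact two-sided permutation p = 0.8; adjusted over 3 ratios, 0.8), and its sign turned without loaded 2 (-0.01) or control 3 (-0.12).

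Levels of different genes were set beside each other in deposited FPKM only. In loaded libraries the order was Papss1 (38.5 ± 1.21), Chsy1 (14.3 ± 0.705), Ugdh (12.5 ± 1.30), Chpf (11.03 ± 1.81), Papss2 (5.10 ± 0.327), Csgalnact1 (4.64 ± 0.607), Chst11 (2.58 ± 0.0883), Chst3 (0.612 ± 0.0611), Slc26a2 (0.409 ± 0.127) and Xylt1 (0.301 ± 0.174; SD, n = 3 each). Neighbours overlapped for Chsy1 and Ugdh, Ugdh and Chpf, Papss2 and Csgalnact1, and Slc26a2 and Xylt1. In control libraries the order differed in 2 places. Ugdh (13.3 ± 0.626) stood above Chsy1 (9.02 ± 0.551) without overlap, and Csgalnact1 (4.66 ± 0.753) stood above Papss2 (4.24 ± 0.0653) with overlap. The 3 genes lowest in both groups, Chst3, Slc26a2 and Xylt1, stayed under 1 FPKM in all 6 libraries. The summed FPKM of the 10 genes was 84.9 to 94.6 in loaded and 87.5 to 94.7 in control libraries, so the total overlapped between groups.

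**Figure D3:**
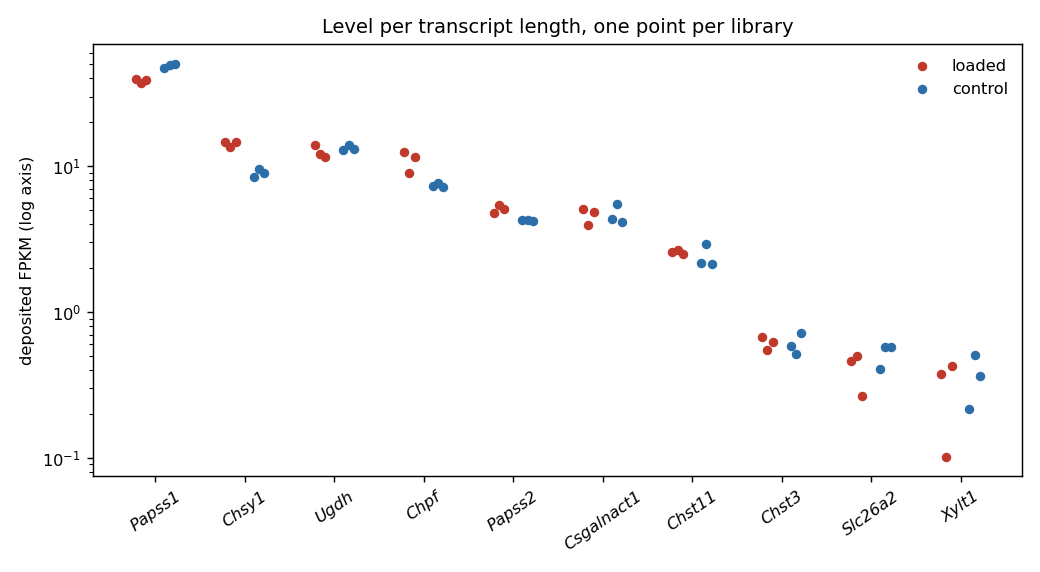
Deposited FPKM of the 10 genes on a log axis, 1 point per library, ordered by the mean of loaded libraries. Papss1 is the highest and Xylt1 the lowest in both groups, and the change of order between Chsy1 and Ugdh is visible.

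Most of the 10 genes have a relative of the same or a similar activity on the pathway lists, and their FPKM levels were compared within each library. In several pairs the relative was the more abundant in all 6 libraries. Xylt2 stood at 7.88 ± 0.679 FPKM in loaded and 8.48 ± 0.295 FPKM in control libraries (SD, n = 3 each), 18.1 to 71.9 times and 17.3 to 37.7 times the level of Xylt1. Csgalnact2 stood at 24.1 ± 1.23 and 24.9 ± 1.41 FPKM, 4.85 to 5.74 times and 4.67 to 5.88 times Csgalnact1. Chst12, a further 4-O sulfotransferase, stood at 62.7 ± 2.88 and 78.8 ± 6.74 FPKM, 22.3 to 25.985 times and 29.6 to 35.6 times Chst11. Chst13, another enzyme of that kind, was at 3.27 to 3.97 times and 2.44 to 3.97 times Chst11.

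In other pairs the order was the reverse in all 6 libraries. Chsy3, a further chondroitin synthase, was at 0.0220 to 0.0379 times the FPKM of Chsy1 in loaded and 0.0281 to 0.0504 times in control libraries. Chpf2 was at 0.500 to 0.636 times and 0.608 to 0.672 times the FPKM of Chpf, and the sulfate transporter Slc26a1 at 0.181 to 0.847 times and 0.360 to 0.671 times that of Slc26a2. Slc26a6, also on the list of sulfate and PAPS supply, was instead above Slc26a2 in all 6 libraries. It stood at 3.40 ± 0.970 FPKM in loaded and 3.11 ± 0.0961 FPKM in control libraries (SD, n = 3 each). So Chsy1 and Chpf, the genes that rose, were each above the relative compared, while Csgalnact1, Xylt1 and Chst11 were below theirs. Papss1, which fell, was also above Papss2 in all 6 libraries, and Slc26a2, which did not pass, was above Slc26a1. In these few pairs the more abundant gene rose in some and not in others, which is a description only. The 6-O sulfotransferase Chst7 lay on both sides of Chst3, at 0.834 to 1.74 times and 1.11 to 1.84 times its FPKM. These pairs were picked after their values were seen. The erythroid and myeloid shares of counts are given above, and their part in this order was not tested.

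The rest of the pathway was counted over lists of 76 further symbols, of which 66 genes were tested. Of these 5 rose (7.58%) and 21 fell (31.8%), beside 17.9% and 18% of all genes, with a median log2 fold change of -0.15. Other settings moved this split. With library totals 9 rose and 10 fell. Without loaded 1 it was 3 that rose, without control 3 it was 2 that rose and 12 that fell, and without control 1 it was 11 that fell. Without both replicate 2 libraries 12 fell.

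In the linkage region that joins chain and core protein, none of the 6 further genes rose and 2 fell. The xylose kinase Fam20b stood at 68.5 ± 2.14 CPM in loaded and 80.2 ± 0.114 CPM in control libraries and fell by 0.23 ± 0.049 on the log2 scale (SE, adjusted p = 0.00208, edgeR). Xylt2 moved by -0.20 (adjusted p = 0.0463, edgeR), a call that held in 6 of 17 alternative fits. Of 3 further genes of chain initiation and elongation, Chpf2, which is related to Chpf, rose by 0.27 ± 0.0833 (adjusted p = 0.0204, edgeR). That call was lost without loaded 1, control 2 or control 3 and when both second replicates were dropped (adjusted p = 0.0518 to 0.114). Csgalnact2 moved by -0.14 and did not pass (adjusted p = 0.051, edgeR).

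Of 8 further chondroitin and dermatan sulfotransferases and epimerases 1 rose and 2 fell. Dsel, a relative of the epimerase that turns chondroitin into dermatan sulfate, stood at 3.48, 3.89 and 4.52 CPM in loaded libraries, against 1.77, 1.23 and 2.07 CPM in control libraries, a rise of 1.23 ± 0.24 on the log2 scale (SE, adjusted p = 0.000974, edgeR). Chst12 stood at 104, 102 and 106 CPM in loaded libraries, against 133, 149 and 135 CPM in control libraries, and fell by 0.42 ± 0.0529 on that scale (SE, adjusted p = 1.98e-05, edgeR). The dermatan sulfotransferase Chst14 moved by -0.40 (adjusted p = 0.0414), a call that held in 7 of 17 alternative fits. In sulfate and PAPS supply 1 of 5 further genes fell and none rose. Slc35b2, a transporter that carries PAPS into the Golgi, stood at 40.1 ± 3.93 CPM in loaded and 52.7 ± 2.53 CPM in control libraries and fell by 0.39 ± 0.0713 on the log2 scale (SE, adjusted p = 0.000517, edgeR).

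Of 11 further genes of UDP-sugar supply none rose and 6 fell. Gfpt2, an entry enzyme of the hexosamine pathway, stood at 8.35 ± 0.222 CPM in loaded and 14.9 ± 1.11 CPM in control libraries and fell by 0.84 ± 0.109 on the log2 scale (SE). Uap1, which makes UDP-N-acetylglucosamine, fell by 0.43 ± 0.0663. Uxs1, which makes the UDP-xylose for the linkage region, fell by 0.27 ± 0.0697, a call lost only with library totals (adjusted p = 0.0528). Cant1, a Golgi nucleotidase, moved by -0.16, and its call held in 4 of 17 alternative fits.

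Of 15 tested genes of heparan sulfate, the related chain built on the same linkage, none rose and 4 fell. The 6-O-sulfatase Sulf2 fell by 0.78 ± 0.144 on the log2 scale (SE) and held in all 17 alternative fits. The chain polymerase Ext2 (-0.27), the sulfotransferase Ndst2 (-0.47) and Hs6st1 (-0.33) passed, and their calls held in 15, 14 and 10 of 17. Of 6 keratan sulfate genes 2 passed, both lower, the sulfotransferase Chst1 (-0.67) and the galactosyltransferase B4galt1 (-0.22), and each call held in 14 of 17, while the median of the 6 was 0.10. Of 12 lysosomal genes of chain degradation 3 rose and 4 fell. The glucuronidase Gusb fell by 0.58 ± 0.0465 and the sulfatase Arsb fell by 0.33 ± 0.0454, while the iduronidase Idua rose by 0.41 ± 0.112. The call of Idua was lost only without control 3 (adjusted p = 0.0505).

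Core proteins that can carry these chains went both ways. Of 13 tested, 5 rose (38.5%) and 4 fell (30.8%), beside 17.9% and 18% of all genes. This short list was chosen with earlier results of these data known, and its higher shares were not tested. Acan stood at 68.4, 58.5 and 64.3 CPM in loaded libraries, against 47.5, 49.3 and 46.5 CPM in control libraries, and rose by 0.42 ± 0.0617 on the log2 scale (SE). The small proteoglycans biglycan (Bgn) and decorin (Dcn) rose by 0.51 ± 0.0495 and 0.46 ± 0.0476. Versican (Vcan), a large proteoglycan of soft tissue, fell by 0.77 ± 0.0651, and Srgn fell as given above. Relative to Acan in the same library, 6 of the 10 genes (Papss1, Ugdh, Csgalnact1, Chst11, Chst3 and Slc26a2) were lower in every loaded library than in any control, and none was higher in every one. Acan itself was higher in loaded libraries, which lowers this ratio for any gene that did not rise with it. Per unit of Acan 54.7% of the other 16446 genes tested lay below without overlap and 7.54% above, 62.3% on either side, so 6 of 10 is near the background and is not a trait of these genes. For Papss1 this FPKM ratio was 4.00 ± 0.309 in loaded and 7.22 ± 0.469 in control libraries, and for Ugdh 1.29 ± 0.116 and 1.97 ± 0.0479 (SD, n = 3 each). The factors Sox9, which drives cartilage genes, and Runx2, which drives bone and hypertrophic genes, did not pass (log2 fold changes 0.66 and 0.00045, adjusted p = 0.106 and 0.998, edgeR). Sox9 passed without loaded 1 (adjusted p = 0.032).

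**Figure D4:**
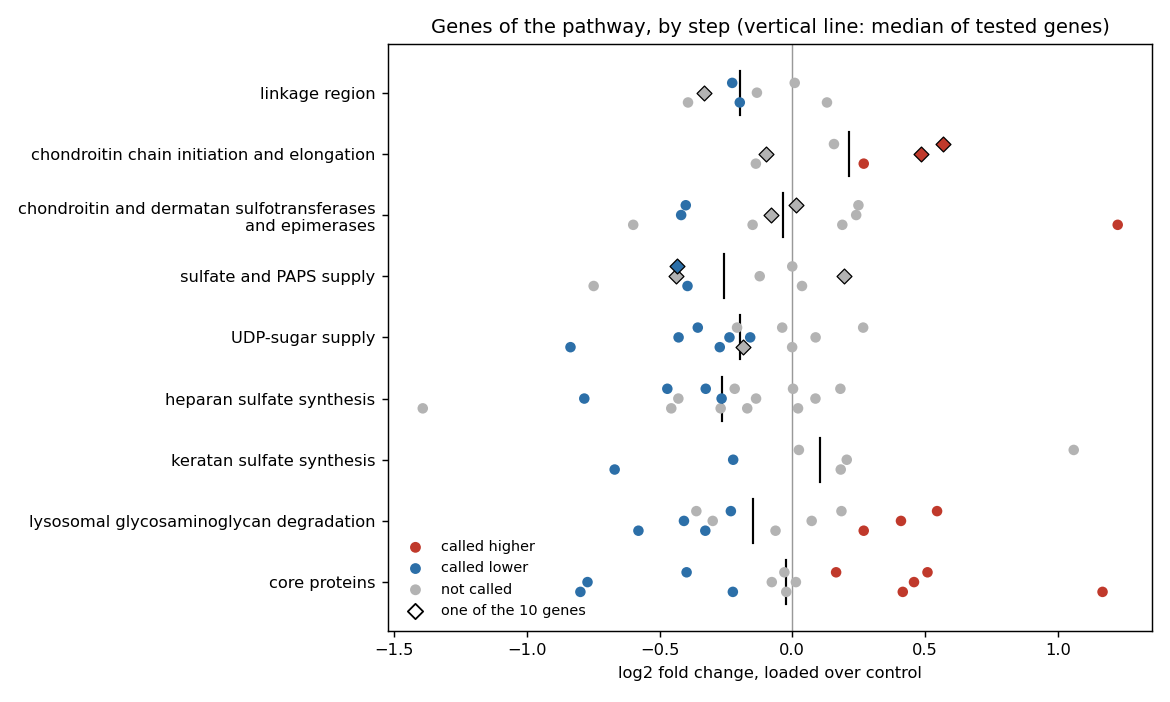
Log2 fold change of loaded over control for each tested gene of the pathway, grouped by step, with diamonds for the 10 genes, color for calls at an adjusted p under 0.05 and a vertical line for the median of a step. Calls in UDP-sugar supply and heparan sulfate synthesis lie to the left of 0, and the 3 calls in chondroitin chain initiation and elongation (Chsy1, Chpf and Chpf2) to the right.

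The genes most like Chsy1 and Papss1 over the 6 libraries were found by the root mean square difference in log2 CPM centred on each gene's mean, among 9399 genes. For Chsy1 they were Gimap4 (0.020), Mier3 (0.025), Mtfr1l (0.026), Col3a1 (0.030) and Col2a1 (0.032), and 285 genes lay within 0.1. For Papss1 those nearest included Paqr9 (0.017), Zfp598 (0.027), Foxo4 (0.029) and Calr (0.029), and 856 genes lay within 0.1. With 2 groups of 3 libraries, this likeness mostly ranks genes with the same group difference.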

How the data were processed

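The labels' protocols give TRIzol extraction and a dual-mode mRNA library kit. Per the file headers, the authors deposited raw counts per gene, not normalised, beside FPKM for each library and their own comparison. Aligner and test were HISAT2 and DESeq2, per the submitters' processing notes, which give no versions. The notes also list the mouse build mm10, yet the gene identifiers are rat Ensembl identifiers, so the aligned build is uncertain. Counting tool, annotation release and strand setting: not given in the sources used here. Reads of overlapping antisense genes therefore cannot be told apart.

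Of 26991 lines 10 were spilled annotation text and were dropped. Counts were tested with edgeR 4.0.16 in R 4.3.3 (filterByExpr, 16447 genes kept; TMM factors 0.961 to 1.05; robust quasi-likelihood F test, no replicate block), with p adjusted over all genes tested. CPM uses TMM-scaled totals, except in the limit for a count of 0. SE is the log2 fold change over the square root of F, and intervals use the fit's degrees of freedom. FPKM entered only levels and ratios, with exact permutation tests over libraries for 3 ratios and no pseudocount. The fit was tested on simulated counts. Of 177 listed symbols 170 matched a row, 1 through an older symbol, and 1 matched several rows and was left out. The 10 genes, the lists and the tests were chosen with earlier results of these data known. Named are the 10 genes, up to 4 called genes with the smallest adjusted p of each pathway list, and 9 genes whatever their result. Some genes that this rule names are not reported here. Other genes named were chosen after their values were seen. Alternatives were DESeq2 1.42.0, limma-voom (limma 3.58.1) with and without quality weights, other scalings and filters, libraries left out, a replicate block and thresholds of 0.01 and 0.1.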

Additional observations from a re-analysis of the deposited data

How the results depend on the processing

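The calls of Chsy1 and Chpf as higher and of Papss1 as lower held in all 17 alternative fits, with log2 fold changes of 0.53 to 0.64, 0.40 to 0.60 and -0.46 to -0.36. The count of the 10 genes called lower became 2 at a threshold of 0.1, where Ugdh passes, and was 1 to 2 when a library was left out. Among the other 66 pathway genes, library totals gave 9 higher and 10 lower, a threshold of 0.01 gave 2 higher and 10 lower, and leaving out both replicate 2 libraries gave 12 lower. Leaving out 1 library gave 2 to 7 higher and 11 to 17 lower. Library totals moved the median of all genes by less than 0.1, to 0.08 on the log2 scale. The cause of these shifts was not tested.

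Signs turned only for genes that never passed and for ratios. Leaving out 1 library gave -0.21 to 0.070 for Chst3, -0.063 to 0.15 for Chst11, -0.17 to 0.017 for Csgalnact1 and -0.65 to 0.052 for Xylt1, and without both replicate 2 libraries Csgalnact1 was at 0.10 and Xylt1 at 0.34. Runx2, at 0.00045, was at -0.00072 with DESeq2, -0.00082 with voom, -0.014 with voom and quality weights, -0.00074 with size factors, -0.0077 with no filter, -0.00013 without the abundant lists, -0.00095 with the block, -0.032 without both replicate 2 libraries and -0.064 to 0.055 with 1 library left out. The difference in log2 ratio ranged from -0.12 to 0.35 for Chst11 over Chst3 and from -0.00069 to 0.18 for Chsy1 over Chpf.

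Same-numbered libraries hardly deviated together (correlations -0.0139, 0.0462 and 0.0207). Loaded 1 correlated best with control 3 (0.0293), while loaded 2 and loaded 3 each correlated best with the control of the same number. All these correlations lay between -0.0464 and 0.0462, so the numbers were not taken as pairs. With a replicate block 2 of the 10 genes were higher and 1 lower, and 5 of the other pathway genes were higher and 16 lower. Over all genes, 2655 were higher and 2694 lower with the block. At 8 to 46 counts a library for Xylt1 and 27 to 72 for Slc26a2, depth limits what can be seen for these genes.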
